A study of Strigamia maritima with 9 samples.

Results

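CopiaMBD1 and CopiaMBD3 are methyl-CpG binding domains carried by Copia retrotransposons of the centipede Strigamia maritima, and the binding of each to the animal's native DNA is set here against that of the other. All rows of both native-DNA peak lists were taken, which gave 7461 CopiaMBD1 peaks and 15714 CopiaMBD3 peaks, 23175 of the 37836 peaks of the series. In DNA affinity purification sequencing (DAP-seq) a protein made outside the cell is offered naked genomic DNA, and the fragments it holds are sequenced. Here the DNA came from adult tissue of animals of the sequenced strain, was sonicated to a mean of 200 bp, and was incubated with an in-vitro translated domain fused to a HaloTag, a protein tag that couples covalently to beads. The control was HaloTag alone on the same kind of DNA, and 1 such library served both lists. After purification the DNA was amplified for 20 cycles. Each side had 1 library, so every comparison describes these libraries, and no test between the domains was possible.

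Methyl-CpG binding domains recognise a CpG dinucleotide whose cytosines carry a methyl group, and in animals they are best known from proteins that read DNA methylation in the cell nucleus. Copia elements are retrotransposons, which copy themselves through RNA and insert the copy elsewhere in the genome. A domain that reads methylation inside such an element is therefore of interest for which parts of a methylated genome it can hold. Native DNA keeps its methyl groups, so a peak marks DNA as the animal carried it. Methylation and base sequence at the peaks were not analysed here.

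CopiaMBD1 was sequenced to 2239324 tags at unique positions and CopiaMBD3 to 2044955, against 4050757 for the HaloTag-only library. The peak caller sampled the larger library of each comparison down to the smaller and kept 1 tag per position. Pileup, the number of fragments over a peak's highest point (its summit), is not scaled to a fixed depth. It cannot exceed 2 times the fragment length the caller modelled, because tags on each strand are kept once per position. That limit was 290 for CopiaMBD1 and 280 for CopiaMBD3, and the highest pileups were 286 and 280. A place without a peak is a place where none was called at this depth, not one shown to be unbound. Intervals below are exact 95% intervals, of shares from the binomial distribution and of medians from their binomial order statistics. They cover counting error only, and peaks are not replicates of a library.

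CopiaMBD3, from fewer tags, had 2.11 times as many peaks as CopiaMBD1 (95% interval 2.05 to 2.17) and covered 2.34 times as much sequence, 3991 kb against 1703 kb. Most CopiaMBD1 peaks had a CopiaMBD3 peak on them, while most CopiaMBD3 peaks had no CopiaMBD1 peak. A CopiaMBD3 peak overlapped 5620 of the CopiaMBD1 peaks by at least 1 bp (75.3%, 74.3 to 76.3), and a CopiaMBD1 peak overlapped 5467 of the CopiaMBD3 peaks (34.8%, 34.0 to 35.5). The lists have unequal lengths, which bears on these shares. When the CopiaMBD3 list was cut to the 7461 peaks of highest significance, the shares were 53.3% of CopiaMBD1 peaks and 50.7% of CopiaMBD3 peaks. At a stricter threshold, a −log10 q-value of at least 10, CopiaMBD3 had 4.72 times as many peaks as CopiaMBD1, and 80.3% and 17.0% were shared. Both lists were called against the same control library, and what that adds to the overlap was not tested. By covered length, shared peaks made up 79.4% of CopiaMBD1 sequence and 44.9% of CopiaMBD3 sequence. Joined together, the lists formed 17453 regions, of which 5365 (30.7%) carried both domains, 1841 (10.5%) CopiaMBD1 alone and 10247 (58.7%) CopiaMBD3 alone.

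Where peaks of both domains overlapped, most summits lay within 50 bp of each other. Each CopiaMBD1 peak was paired with the CopiaMBD3 peak of largest overlap, which gave 5620 pairs. Choosing pairs by overlap itself limits how far apart the summits can lie. The distance that overlap alone would give was not computed. The median distance between the summits was 32 bp (31 to 34), with an interquartile range of 13 to 73 bp. Summits fell within 10 bp of each other in 1203 pairs (21.4%), within 50 bp in 3633 (64.6%) and within 100 bp in 4611 (82.0%), and on the same base in 76. A distance of 50 bp is well under the modelled fragment length of 145 bp for CopiaMBD1 and 140 bp for CopiaMBD3. Over 500 bp separated the summits in 67 pairs (1.19%). At the stricter threshold the median distance was 15 bp. The displacement had no preferred side. The CopiaMBD3 summit had the higher coordinate in 48.7% of pairs (47.4 to 50.1) and the lower in 49.9% (48.6 to 51.2), and the median signed distance, CopiaMBD3 minus CopiaMBD1, was 0 bp (-2 to 1).

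**Figure D1:**
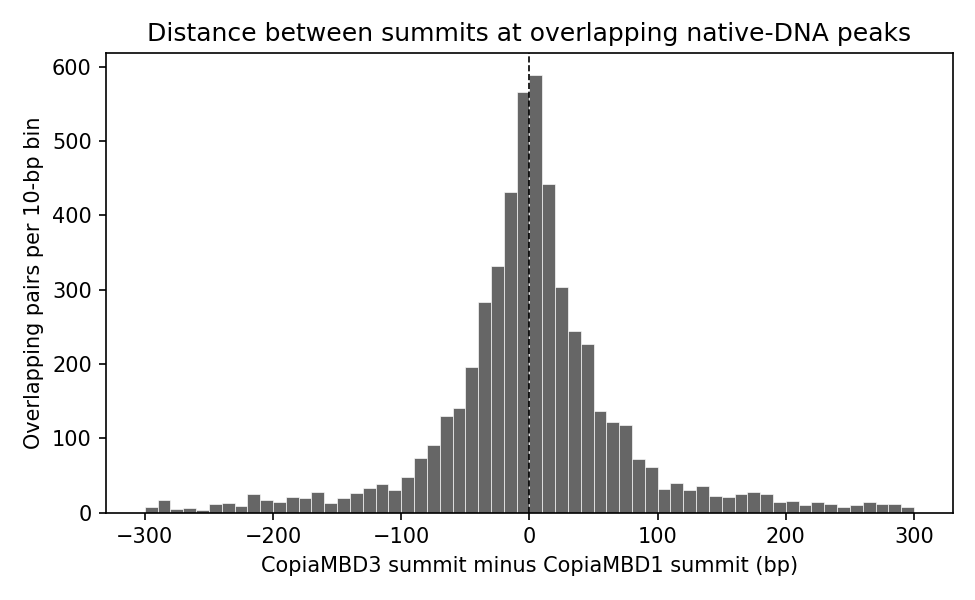
The x axis gives the position of the CopiaMBD3 summit minus that of the CopiaMBD1 summit in bp, and the bars count overlapping pairs in 10-bp bins between -300 and 300 bp. The bars are tallest on either side of 0 and fall off alike to the left and right, with 64.6% of pairs within 50 bp.

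Summits were closest at the peaks with the most fragments. In the 25% of pairs with the lowest CopiaMBD1 pileup (8 to 14 fragments) the median distance was 46 bp (43 to 50). In the next 25% (14 to 17) it was 39 bp, then 35 bp (17 to 22), and in the 25% with the highest pileup (22 to 286) it was 18 bp (16 to 19). By CopiaMBD3 pileup the medians ran from 41 bp in the lowest 25% (7 to 18 fragments) to 20 bp in the highest (34 to 280). A summit placed from few fragments is also less precise, and the part of that in the trend was not tested. Width went the other way, with a median of 26 bp where the CopiaMBD3 peak was up to 200 bp wide and 82.5 bp (70 to 104) where it was over 500 bp. A wider peak also leaves more room between summits, and the part of that was not tested. Other pairs of domains gave like distances. The same measure gave medians of 31 bp (30 to 32) for CopiaMBD1 with CopiaMBD2, the third domain tested on native DNA, and 32 bp (31 to 33) for CopiaMBD2 with CopiaMBD3.

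The largest summit distances came from long CopiaMBD3 peaks with a small CopiaMBD1 peak at one end. On JH431198 the CopiaMBD3 peak at 209253 to 211361 had a pileup of 44 at position 209846. The CopiaMBD1 peak at 211068 to 211304 had a pileup of 15 at 211185, which is 1339 bp away. The same CopiaMBD3 peak, the widest of its list at 2109 bp, also held a CopiaMBD1 peak of 544 bp at 209533 to 210076 with a pileup of 22, whose summit was 112 bp from that of CopiaMBD3. On JH429684 the summits were 1116 bp apart, in a CopiaMBD3 peak of 1512 bp (45173 to 46684, pileup 33) and a CopiaMBD1 peak of 145 bp (46464 to 46608, pileup 15). On AFFK01020101 they were 1071 bp apart, in peaks of 1529 bp (60172 to 61700, pileup 53) and 196 bp (60203 to 60398, pileup 16). At all 3 places the smaller CopiaMBD1 signal lay near an edge of the CopiaMBD3 peak.

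CopiaMBD3 peaks were wider at most shared places. Across the pairs the median width was 207 bp (interquartile range 168 to 274) for CopiaMBD1 and 276 bp (203 to 408) for CopiaMBD3. The median difference within a pair, CopiaMBD3 minus CopiaMBD1, was 54 bp (51 to 57). The CopiaMBD3 peak was the wider in 4237 pairs (75.4%), the CopiaMBD1 peak in 1354 (24.1%), and 29 pairs had equal widths. The caller's shortest peak is its modelled fragment length, 145 bp for CopiaMBD1 and 140 bp for CopiaMBD3, so this floor favours CopiaMBD1 by a few bp. At that floor were 9.33% of all CopiaMBD1 peaks and 7.0% of all CopiaMBD3 peaks. With CopiaMBD2 the median differences were 34 bp (31 to 37) for CopiaMBD2 minus CopiaMBD1 and 18 bp (17 to 20) for CopiaMBD3 minus CopiaMBD2. The added width was shared between the edges. CopiaMBD3 reached beyond CopiaMBD1 by a median of 23 bp at the lower-numbered edge and 22.5 bp at the higher-numbered edge.

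In 2598 pairs (46.2%) the CopiaMBD1 peak lay wholly inside its CopiaMBD3 partner, in 439 (7.81%) the CopiaMBD3 peak lay inside the CopiaMBD1 peak, and in 2583 (46.0%) the peaks were staggered. The overlap covered a median of 98.2% of the CopiaMBD1 peak and 72.6% of the CopiaMBD3 peak. Most places matched peak to peak: 5519 CopiaMBD1 peaks met 1 CopiaMBD3 peak, 100 met 2 and 1 met 3. Of the CopiaMBD3 peaks, 5234 met 1 CopiaMBD1 peak, while 233 met 2 or more, up to 4. Those 233 had a median width of 693 bp against 263 bp for peaks over 1 CopiaMBD1 peak. Summits of neighbouring CopiaMBD1 peaks that met the same CopiaMBD3 peak were a median of 370 bp apart (interquartile range 301.5 to 497.5). An example is the second widest CopiaMBD3 peak, 1818 bp on JH431789 (348280 to 350097, pileup 43), where CopiaMBD1 had 3 peaks with pileups of 31, 25 and 21. Likewise the third widest, 1681 bp on JH430833 (14870 to 16550, pileup 33), held CopiaMBD1 peaks with pileups of 20 and 17. Single CopiaMBD3 peaks thus ran across places where CopiaMBD1 was called in pieces.

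Long CopiaMBD1 peaks were fewer. Of CopiaMBD1 peaks 6 (0.0804%) were at least 1000 bp wide, against 95 (0.605%) of CopiaMBD3 peaks. Its widest, 1544 bp on JH432163 (21247 to 22790), had a pileup of 22, and the CopiaMBD3 peak it overlapped most (21086 to 22380) had a pileup of 46 with a summit 5 bp away. The next, 1194 bp on JH432062 (20143 to 21336), had a pileup of 20 against 47 for a CopiaMBD3 peak of 1451 bp. The third, 1178 bp on JH431986 (15886 to 17063), had a pileup of 25 against 53 for a CopiaMBD3 peak of 1317 bp. At each of these the CopiaMBD3 pileup was the higher.

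Pileup at shared places was higher for CopiaMBD3 although its library was the smaller. The median was 17 fragments for CopiaMBD1 (interquartile range 14 to 22) and 25 for CopiaMBD3 (18 to 34), and the median ratio within a pair was 1.38 (1.36 to 1.40). With each pileup divided by the unique tags of its library, the median ratio was 1.52 (1.49 to 1.53). CopiaMBD3 had the higher pileup in 4474 pairs (79.6%), CopiaMBD1 in 885 (15.7%), and 261 were level. A pileup of at least 2 times the other was found for CopiaMBD3 in 722 pairs (12.8%) and for CopiaMBD1 in 20 (0.356%). The ratio fell towards 1 at the highest pileups, with medians of 1.42 where CopiaMBD1 had up to 20 fragments, 1.33 at 21 to 100 and 1.13 (1.07 to 1.18) above 100, where the limit of 290 and 280 fragments comes near. Over the pairs with CopiaMBD2 the median ratios were 1.23 (CopiaMBD2 to CopiaMBD1) and 1.12 (CopiaMBD3 to CopiaMBD2). In the authors' fold enrichment, pileup over the local control level, the medians at these pairs were 4.48 for CopiaMBD1 and 6.34 for CopiaMBD3.

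**Figure D2:**
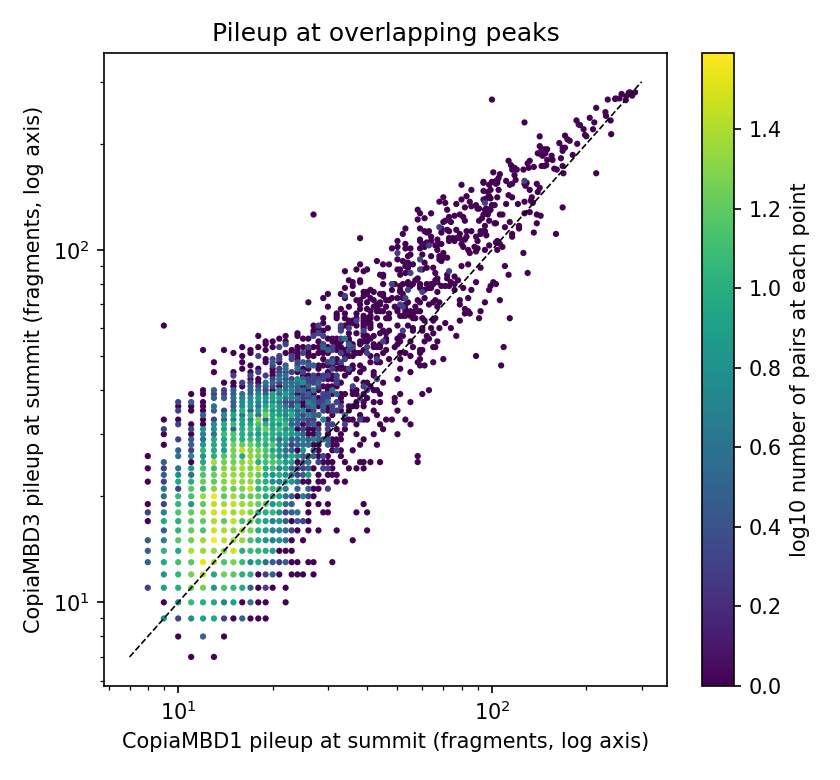
Each point is a combination of CopiaMBD1 pileup (x, fragments, log axis) and CopiaMBD3 pileup (y, fragments, log axis) at overlapping peaks, coloured by the log10 number of pairs, and the dashed line marks equal pileups. Most pairs lie above the line, 79.6% of 5620, and the cloud narrows onto the line near the upper limit of 280 to 290 fragments.

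The strongest pileups were at the same places in both lists. The highest pair was on AFFK01014187, with 286 fragments for CopiaMBD1 (1253 to 1694) and 280 for CopiaMBD3 (1252 to 1710) and summits 2 bp apart. The pairs on AFFK01017866 (25 to 569 and 14 to 595) had 276 and 279, and those on AFFK01016211 (983 to 1377 and 920 to 1385) had 275 and 280. The second highest CopiaMBD1 pileup, 280 on AFFK01008510 (518 to 988), stood beside 274 for CopiaMBD3. A CopiaMBD3 pileup of 279 on AFFK01003161 (565 to 951) stood beside 273 for CopiaMBD1. These 5 places are on short contigs and at or near the caller's limit, and they are not the most enriched. The authors' fold there was 2.13 to 3.83 for CopiaMBD1 and 2.48 to 4.72 for CopiaMBD3, because the HaloTag-only control was also high, at 34.7 to 68.8 times the lowest level of its list.

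Ranked within the 5620 pairs, the places with most CopiaMBD1 fragments were mostly those with most CopiaMBD3 fragments. Of the 1376 pairs in the top 25% by CopiaMBD1 pileup, ties included, 992 (72.1%, 69.6 to 74.5) were in the top 25% by CopiaMBD3 pileup, a group that holds 25% of all pairs. In the lowest 25% by CopiaMBD3 pileup were 27 of them (1.96%). At the other end, 655 of the 1294 pairs lowest by CopiaMBD1 pileup were also lowest by CopiaMBD3 pileup (50.6%) and 35 in the highest (2.70%). Control level moved with pileup. For each set of pairs that follows, the top 25% was ranked anew within that set. Among the 580 pairs with the control at its lowest level in both lists, less than 5% above the minimum, the share in both top groups was 50.3% (42.4 to 58.2). Among the 4144 pairs with a control under 3 times the minimum in both lists it was 53.7% (50.7 to 56.6). It was 84.7% (81.5 to 87.6) on AFFK contigs and 62.0% (58.5 to 65.4) on JH scaffolds. What the control level adds to these shares was not tested. With CopiaMBD2 the share was 75.5% (73.2 to 77.6) for CopiaMBD1 and 66.7% (64.8 to 68.7) between CopiaMBD2 and CopiaMBD3, and all these lists share the control library.

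At the lowest control level, in sites picked out after the values were seen, the highest paired pileups were on AFFK01017074, with 38 fragments for CopiaMBD1 (45 to 330) and 68 for CopiaMBD3 (4 to 420) and summits 10 bp apart. The authors' fold was 13.6 and 26. Next came AFFK01010340, with 37 fragments (751 to 969) and 61 (723 to 973) and both summits at position 848. On AFFK01004614 the values were 33 (3 to 221) and 38 (5 to 207), with summits 10 bp apart. These sites had no amplified-DNA peak of any domain, which does not set them apart. Among all shared peaks only 0.231% of CopiaMBD1 and 0.530% of CopiaMBD3 peaks met an amplified-DNA peak of their own domain.

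A few pairs went far from the usual ratio, and these too were picked out after their values were seen. On JH429627 CopiaMBD3 had 61 fragments (14726 to 15692) and CopiaMBD1 had 9 (14741 to 14932), a ratio of 6.78, with summits 736 bp apart. On AFFK01011016 the values were 126 and 27, with summits 392 bp apart, and on JH432155 they were 52 and 12, with summits 304 bp apart. In the other direction AFFK01001627 had 40 fragments for CopiaMBD1 (81 to 284) and 16 for CopiaMBD3 (102 to 259), a ratio of 2.50, with summits 19 bp apart. AFFK01009758 had 36 and 15, and JH432074 (452489 to 453024 for CopiaMBD1) had 31 and 13, each with summits 25 bp apart. The pairs that favoured CopiaMBD3 most had distant summits, so their pileups were read at different bases, while those that favoured CopiaMBD1 had close ones.

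Sharing rose with pileup, and did so over a wider range for CopiaMBD3. Of CopiaMBD1 peaks with 8 to 10 fragments, 52.0% (47.6 to 56.4) had a CopiaMBD3 peak, and from 21 to 25 fragments upward 84.9 to 95% did. Of CopiaMBD3 peaks with 7 to 10 fragments 14.6% (12.1 to 17.3) had a CopiaMBD1 peak. The share was 26% at 16 to 20 fragments, 53.3% at 26 to 30, 75.4% at 41 to 60 and 97.0% (94 to 98.8) at 101 to 280. At equal pileup up to 60 fragments CopiaMBD1 peaks were shared more often, 61% against 15.7% at 11 to 12 fragments and 86.1% against 75.4% at 41 to 60. CopiaMBD1 peaks are set here against the longer list, and the part of list length was not tested. Pileups are not scaled between libraries, so an equal pileup is not an equal rank. Above that the intervals overlapped, with 88.2% (82.9 to 92.3) and 87.3% (82.9 to 91) at 61 to 100 fragments and 95% (89.9 to 98) and 97.0% beyond. Of the 100 highest pileups 98 CopiaMBD1 peaks and 99 CopiaMBD3 peaks were shared, and of the 100 highest folds 93 and 95.

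**Figure D3:**
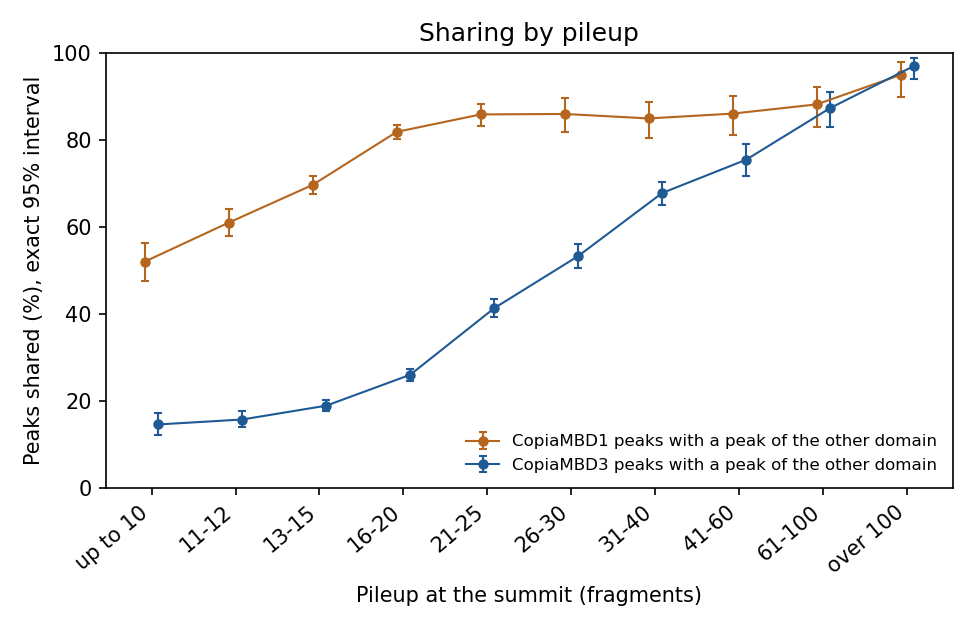
Points give the percentage of peaks of each list that overlap a peak of the other, by pileup at the summit in fragments, with exact 95% binomial intervals. CopiaMBD1 climbs from 52.0% to 85.9% at 21 to 25 fragments and then levels until the last bins, whereas CopiaMBD3 climbs from 14.6% to 97.0% over the whole range.

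Unshared peaks were smaller in both lists, and their control level was lower. For CopiaMBD1 the median pileup was 14 fragments at unshared peaks and 17 at shared peaks, the median width 171 and 207 bp and the authors' fold 4.15 and 4.48. For CopiaMBD3 the medians were 16 and 24 fragments, 186 and 268 bp, and a fold of 4.91 and 6.23. The control level relative to its lowest had medians of 1.24 at unshared and 1.61 at shared CopiaMBD1 peaks, and of 1.28 and 1.83 for CopiaMBD3. Among peaks at the lowest control level 66.6% of CopiaMBD1 (64.2 to 69.0) and 28.8% of CopiaMBD3 (27.3 to 30.3) were shared, against 73.7% and 31.6% of all peaks with a control under 3 times its lowest and 84.2% and 53.6% of those at or above that. These classes were set by each peak's own control. Within the lowest control level the order by size remained, with median CopiaMBD3 pileups of 14 at unshared and 19 at shared peaks and CopiaMBD1 pileups of 12 and 13. There the shared share rose from 50.7% at 8 to 10 fragments to 88.4% at 21 to 38 for CopiaMBD1, and from 14.8% at 7 to 10 to 61.4% at 21 to 68 for CopiaMBD3.

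Sharing also moved with width, and a wider peak has more room to meet another. Of CopiaMBD1 peaks up to 160 bp wide 59.8% were shared, and of those over 300 and up to 500 bp 92.3%. For CopiaMBD3 the shares were 13.8% up to 160 bp, 57.9% over 300 and up to 500 bp and 80.1% above that.

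Among unshared peaks a few had many fragments. The unshared CopiaMBD1 peaks of highest pileup were on AFFK01005462 (171 to 355) with 182 fragments, AFFK01003304 (233 to 575) with 122 and JH430029 (1948 to 2140) with 115. Their folds were 2.93, 3.06 and 4.44 over a control of 13.4 to 32.8 times the lowest, and CopiaMBD2 had a peak at each, with 217, 133 and 106 fragments. For CopiaMBD3 they were on AFFK01003307 (408 to 1003) with 158 fragments and a fold of 5.86, AFFK01001106 (180 to 369) with 124 and a fold of 2.35, and JH431058 (17951 to 18318) with 122 and a fold of 2.92. CopiaMBD2 had peaks on AFFK01003307 and JH431058 and none on AFFK01001106. Over all unshared peaks, a CopiaMBD2 peak overlapped 50.3% for CopiaMBD1 and 41.5% for CopiaMBD3. On AFFK01003307 no CopiaMBD1 peak was called anywhere along the sequence, and on JH431058 the nearest lay 358 bp away.

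At the lowest control level, again picked out after the values were seen, the unshared CopiaMBD1 peaks with most fragments were on JH430821 (1241 to 1474, 32 fragments, fold 11.5), JH431349 (13232 to 13768, 31 fragments, fold 11.1) and AFFK01002860 (49 to 395, 27 fragments, fold 9.75). CopiaMBD2 had peaks of 36, 19 and 32 fragments there. The corresponding CopiaMBD3 peaks were on AFFK01010091 (23 to 362, 47 fragments, fold 18.1), AFFK01005092 (504 to 826, 37 fragments, fold 14.3) and AFFK01008222 (764 to 923, 37 fragments, fold 14.3), with CopiaMBD2 peaks of 14, 21 and 21 fragments. Peaks of CopiaMBD2 were common at unshared peaks of any control level, at 50.3% for CopiaMBD1 and 41.5% for CopiaMBD3. Each list therefore held strongly enriched places at which the other of the 2 compared domains had no call.

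CopiaMBD3 peaks were the more numerous on 3586 of the 5425 sequences with a peak of either domain (66.1%), CopiaMBD1 peaks on 455 (8.39%), and 1384 (25.5%) had equal numbers. Both domains were on 3068 sequences, while 2035 had CopiaMBD3 alone and 322 had CopiaMBD1 alone. Sequence lengths were not in the files, so a sequence was taken to span up to the end of its last peak in any list, and only sequences with a peak enter, which raises densities on short ones. The ratio of CopiaMBD3 to CopiaMBD1 peaks was 2.25 (2.17 to 2.33) on JH scaffolds and 1.89 (1.81 to 1.98) on AFFK contigs. By span it was 1.76 (1.65 to 1.87) under 2 kb, 2.22 (2.06 to 2.39) from 2 to 10 kb, 2.11 (2.03 to 2.21) from 10 to 100 kb and 2.40 (2.26 to 2.55) at 100 kb or more. Sharing was lower on long sequences, with 79.8% of CopiaMBD1 and 44.9% of CopiaMBD3 peaks shared under 2 kb and 72.3% and 29.1% at 100 kb or more.

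On the 93 sequences of at least 100 kb with at least 20 peaks in all, CopiaMBD3 had more peaks than CopiaMBD1 on every one. The minimum of 20 counts both lists together, so a sequence can pass on CopiaMBD3 peaks alone, as JH432102 did. The choice of these sequences therefore favours those rich in CopiaMBD3 peaks, and the ratios below carry that limit. The median density was 3.32 peaks per 100 kb for CopiaMBD1 (range 0.264 to 14.8) and 7.34 for CopiaMBD3 (1.50 to 44.4), and the median ratio was 2.30 (interquartile range 1.86 to 2.88). A ratio of at least 2 times that of all sequences was reached by 8 of the 93 (8.6%), and a ratio of at most 0.5 times that of all sequences by 0 (0%). The highest ratios were on JH432102, with 20 CopiaMBD3 peaks and 1 CopiaMBD1 peak over 378950 bp, JH432018 with 21 and 3, and JH431661 with 20 and 3. The lowest were on JH431166 with 11 and 9, JH430315 with 15 and 11, and JH432108 with 14 and 10. With so few peaks the exact intervals are wide, 2.09 to 36.7 on JH432018 and 0.460 to 3.34 on JH431166.

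**Figure D4:**
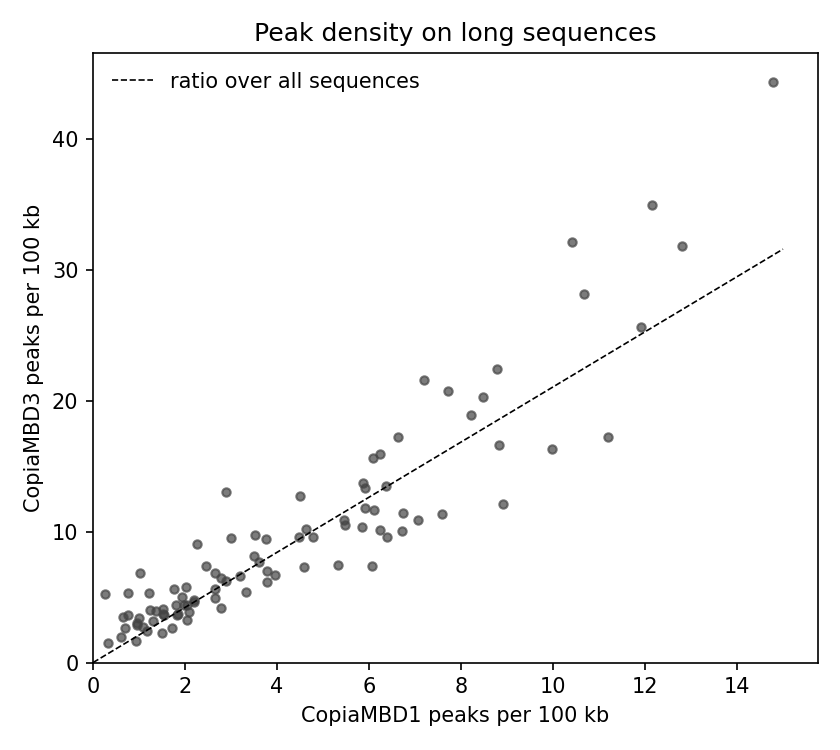
Each of the 93 points is a sequence of at least 100 kb with at least 20 peaks, placed by CopiaMBD1 peaks (x) and CopiaMBD3 peaks (y) per 100 kb of span, and the dashed line is the ratio over all sequences, 2.11. The 2 densities rise together, and the points scatter on both sides of the line, also among dense sequences. Each density is divided by the same span, so a long span lowers both. The part of that in the joint rise was not tested. The densest point, at 14.8 and 44.4, lies above the line, while JH432169, at 11.2 and 17.2, lies below it.

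The densest of these was JH431785, with 15 CopiaMBD1 and 45 CopiaMBD3 peaks over 101442 bp, of which 13 of each were shared. JH432211 followed with 57 and 164 over 469037 bp, sharing 52 and 50, and JH432185 with 37 and 92 over 289086 bp, sharing 34 and 35. On these 3 sequences 86.7 to 91.9% of CopiaMBD1 peaks and 28.9 to 38.0% of CopiaMBD3 peaks were shared. Over all sequences spanning 100 kb or more the shares were 72.3% and 29.1%, and over both whole lists 75.3% and 34.8%. The group with the most regions, joined over gaps of at most 1 kb, was on JH432211 from 446516 to 462408, where 18 regions followed each other, 8 with both domains and 10 with CopiaMBD3 alone.

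Part of the unshared peaks lay beside a peak of the other domain, but most had none within 1 kb. The share that peak density alone would give was not computed. Of the 1841 unshared CopiaMBD1 peaks 736 (39.98%, 37.7 to 42.3) had a CopiaMBD3 peak within 1 kb, edge to edge, and 102 (5.54%) within 100 bp. Of the 10247 unshared CopiaMBD3 peaks 2328 (22.7%, 21.9 to 23.5) had a CopiaMBD1 peak within 1 kb and 192 (1.87%) within 100 bp. The median distance was 1029 bp (925 to 1148) for CopiaMBD1 and 2424 bp (2273 to 2547) for CopiaMBD3, over unshared peaks on sequences that held the other domain. No peak of the other domain was on the sequence of 346 unshared CopiaMBD1 peaks (18.8%) and 2865 unshared CopiaMBD3 peaks (28.0%). With 7461 peaks in each list the shares within 1 kb were 24.7% and 24.99%, and with the stricter threshold 15.8% and 4.46%. Both settings also change which peaks count as unshared, and the part of list length in the difference was not tested. Unshared peaks also lay near peaks of their own list, 24.8% of CopiaMBD1 and 44.2% of CopiaMBD3 within 1 kb.

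**Figure D5:**
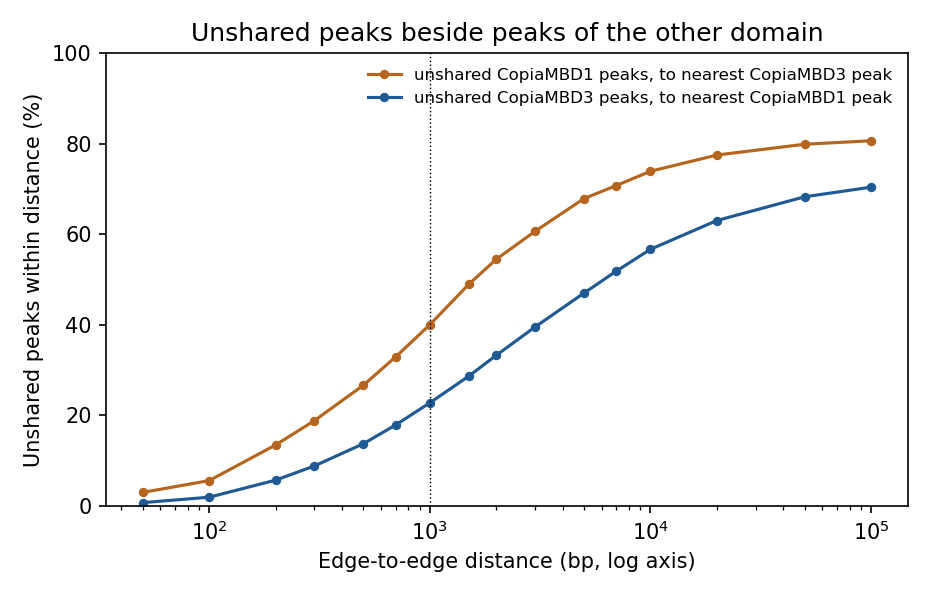
The curves give the percentage of unshared peaks that have a peak of the other domain within the edge-to-edge distance on the x axis (bp, log axis), and the dotted line marks 1 kb. At 1 kb the curves stand at 39.98% for CopiaMBD1 and 22.7% for CopiaMBD3, and neither reaches 100% because some sequences lack the other domain.

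Unshared peaks beside the other domain were close in size to the remaining unshared peaks, which include those on sequences without the other domain. Unshared CopiaMBD1 peaks had a median pileup of 14 fragments in both classes and median widths of 174 bp (170 to 178) within 1 kb and 169 bp (166 to 173) otherwise. Unshared CopiaMBD3 peaks had medians of 17 and 16 fragments and 193 bp (190 to 197) and 184 bp (182 to 186), slightly wider within 1 kb. Median control levels relative to the lowest were 1.25 within 1 kb and 1.17 otherwise for CopiaMBD1, and 1.37 and 1.24 for CopiaMBD3. Of the unshared CopiaMBD1 peaks 518 (28.1%) had an unshared CopiaMBD3 peak within 1 kb and 316 (17.2%) a shared one. Of the unshared CopiaMBD3 peaks 628 (6.13%) had an unshared CopiaMBD1 peak within 1 kb and 1829 (17.8%) a shared one. The orders are opposite, as are the lists' compositions, since 65.2% of CopiaMBD3 peaks and 24.7% of CopiaMBD1 peaks were unshared.

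Along sequences, the kinds of neighbouring regions came in shares within a few percentage points of those of all regions. Next to a region of CopiaMBD1 alone, 59.5% of neighbouring regions carried CopiaMBD3 alone, 27.4% both and 13% CopiaMBD1 alone, against 58.7, 30.7 and 10.5% of all regions. Next to CopiaMBD3 alone the shares were 62.0, 27.4 and 10.6%, and next to a region of both domains 55.9, 34.2 and 9.92%. Each kind had somewhat more neighbours of its own kind than its share of all regions. All regions include those alone on their sequence, which have no neighbour, and an expected order was not computed. Joining regions with gaps of at most 1 kb gave 3216 groups of at least 2 regions, of which 2231 (69.4%) held both domains, 948 (29.5%) CopiaMBD3 alone and 37 (1.15%) CopiaMBD1 alone. A group joins several regions, so the mix of kinds among all regions already puts both domains in many groups. The shares that this mix alone would give were not computed. In 339 groups (10.5%) both domains were present and no region was shared.

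The longest runs of a single kind were of CopiaMBD3 alone, which is also the most frequent kind at 58.7% of all regions. On JH432102 18 regions in a row carried CopiaMBD3 alone (128274 to 378950), and on JH432064 there were 14 (336162 to 606518). The longest run of CopiaMBD1 alone was 5 regions on AFFK01019330 (7075 to 20504), followed by 4 on AFFK01014949 (14723 to 22890). Runs of regions with both domains reached 8 on JH430290 (11527 to 24562) and on JH431789 (292957 to 316416).

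On DNA amplified for 11 cycles before binding, which copies the bases without the methyl groups, CopiaMBD1 had 358 peaks and CopiaMBD3 169, and lists of that length can meet only a small share of the native peaks. A CopiaMBD1 amplified-DNA peak was found at 13 of its 5620 shared peaks (0.231%) and 5 of its 1841 unshared peaks (0.272%). For CopiaMBD3 it was 29 of 5467 shared (0.530%, 0.356 to 0.761) and 13 of 10247 unshared peaks (0.127%, 0.0676 to 0.217).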

How the data were processed

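Peaks were called by the authors with MACS2 2.1.0.20150731, per the file headers, for each domain over its matching HaloTag-only library, at a q-value of 0.05 with down-sampling and an effective genome size of 173.6 Mb. The submitters' processing notes list Bowtie, Bowtie2, BS-Seeker2, fastp and CASAVA 1.8.2 with no roles. Positions are 1-based, as in the files, on a genome build not named in these sources. In the deposited lists pileup is a signal of fragment coverage, fold enrichment is the authors' ratio of pileup to local control, and significance is given as −log10 p and −log10 q. From these, overlaps of at least 1 bp, distances, ranks and counts were computed with Python 3.11.15, numpy 2.4.6, pandas 2.3.3 and scipy 1.17.1, checked on simulated lists, and plotted with matplotlib 3.10.9. The control level at a summit was recovered as (pileup + 1) / fold − 1. Depth was read from the headers, and it limits the peaks that could be called. Named sites are the 3 with the highest pileup, width, summit distance or lower pileup rank, overall or among unshared peaks, and named sequences the 3 with the highest or lowest ratio or the highest density; other sites are said to have been chosen after their values were seen. The measures and lists were chosen with earlier results of these data known. Groups were taken from sample titles. MethylC-seq was not analysed here. Alternatives covered the threshold, list length, overlap, sequence span, control level and distance.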

Additional observations from a re-analysis of the deposited data

Results flagged for a closer look

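The CopiaMBD2 list lies outside the comparison of CopiaMBD1 with CopiaMBD3 and showed peaks at many places where one of them had none. A CopiaMBD2 peak overlapped 50.3% (48.0 to 52.6) of the CopiaMBD1 peaks without a CopiaMBD3 peak, and 41.5% (40.6 to 42.5) of the CopiaMBD3 peaks without a CopiaMBD1 peak. At shared peaks it overlapped 84.9% of CopiaMBD1 peaks and 85.0% of CopiaMBD3 peaks. Each value is called over the same HaloTag-only control, and its part in them was not tested.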

How the results depend on the processing

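Of 46 alternative values, 37 moved beyond the counting interval and 9 did not. The top 25% of pileups was ranked anew under each alternative. In the order CopiaMBD1 shared, CopiaMBD3 shared, top 25% of pileups in common, unshared CopiaMBD1 within 1 kb and unshared CopiaMBD3 within 1 kb, a −log10 q of at least 10 gave 80.3, 17.0, 84.9, 15.8 and 4.46%, and equal numbers of peaks gave 53.3, 50.7, 78.3, 24.7 and 24.99%. An overlap of at least 50% of the shorter peak gave 73.2 and 33.6% shared and 44.8 and 24.1% within 1 kb. Sequences of at least 100 kb gave 72.3, 29.1 and 56.3% for the first 3. A control level under 3 times the lowest, required of the peaks of both lists, gave 65.9, 30.2 and 53.4%, and 20.7% of unshared CopiaMBD3 peaks within 1 kb. Within 500 bp the last 2 shares were 26.6 and 13.7%. The median summit distance was 15 bp at a −log10 q of at least 10, 29 bp with equal numbers of peaks, 44 bp on sequences of at least 100 kb, 36 bp at the lower control level and 30 bp for pairs of 1 peak each. The median width difference was 46 bp at the higher threshold, 70 bp with equal numbers and 66 bp on long sequences. The ratio of peak numbers was 4.72 at the higher threshold and 2.40 on long sequences. With the peak's own control at its lowest level, an alternative chosen after seeing the data, 66.6% and 28.8% were shared, and in pairs with both peaks at that level the top 25% had 50.3% in common and the width difference 40 bp. A shorter CopiaMBD3 list lowers the CopiaMBD1 share by construction, and otherwise the cause was not tested. No paired analysis was possible because each group has 1 library. Weak peaks are limited by depth, since a low pileup in a library of about this size can fall on either side of the threshold.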
